A study of Mus musculus with 8 samples.

Results

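The 10 genes of histocompatibility and antigen presentation described here are the class I heavy chain genes H2-K1, H2-K2, H2-D1 and H2-T23, the class I light chain gene B2m, the class I peptide loading genes Tap1 and Tapbp, and the class II chain genes H2-Aa, H2-Ab1 and H2-Eb1. Members are all probe sets that the array annotation assigns to one of these genes, alone or together with other H2 genes only. They number 20 of the 12422 probe sets of the U74Av2 array and 33 of the 45037 of the MOE430v2 array (controls left out), or 10 of the 19471 gene symbols on both arrays. A probe set is a group of short probes read as 1 value. The genes were chosen as a family with the Foxa2 null minus wild-type values of these arrays already known, and the H2-K2 probe set was known to be among the largest decreases, so those differences are given as a description and no test is read from them.

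At embryonic day 7.5, RNA was taken from mouse epiblasts freed of the extra-embryonic region and pooled from 53 and 50 wild-type embryos of the ICR stock and from 53 and 48 Foxa2 null embryos, with the sexes mixed. Foxa2 null embryos were made by tetraploid complementation, in which mutant embryonic stem cells form the embryo proper and a wild-type tetraploid host of the B5/EGFP line forms the extra-embryonic tissue. By the study's methods the visceral endoderm of that host stayed on the mutant epiblasts. The labels of the mutant MOE430v2 arrays also say ICR, those of the mutant U74Av2 arrays give no strain, and the strain of the stem cells is not given in the sources used here. Genotype, stem cell origin and strain therefore cannot be told apart in these pools. This bears on the histocompatibility genes directly, since they are among the most variable genes between mouse strains, and a base that differs under a probe can lower the signal of that probe whatever the amount of RNA.

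Each of the 4 extracts was put on 1 array of either kind, so n was 2 pools per genotype throughout and the second array type added no pools. The study describes the pools of a genotype as biological replicates, and each was a mix of stages from mid-streak to head-fold, so their spread holds differences between embryos and stages as well as technical ones. The U74Av2 arrays were hybridized on different days, each with 1 array of either genotype, and the sources used here do not say which pools shared a day, so values within a day cannot be given. In bulk RNA, fewer cells that express a gene and less RNA per cell cannot be told apart. The targeted gene, Foxa2, was at log2 signals of 7.37 and 8.08 in wild-type and 6.39 and 6.55 in Foxa2 null pools on U74Av2. On MOE430v2 it was at 9.62 and 10.17 against 8.96 and 9.06. Of 9 listed markers of epiblast and primitive streak, 5 were read on U74Av2 and 8 on MOE430v2, and all of these lay above the lowest 30% of signal. The streak marker T was not among those read here, although the study reports it on both arrays, as lower in Foxa2 null embryos.

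Class I molecules carry short peptides from inside the cell to its surface, where T cells and natural killer cells read them. A polymorphic heavy chain (H2-K and H2-D in the mouse) pairs with the invariant light chain beta-2 microglobulin. The peptides are cut by the proteasome, pumped into the endoplasmic reticulum by the TAP transporter and loaded with the help of tapasin. Class II molecules are pairs of an alpha and a beta chain that present peptides from endocytosed protein, mainly on professional antigen-presenting cells. Early embryonic cells are known for low surface class I and for the lack of class II.

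In the RefSeq gene table of assembly GRCm38.p6 all members lie on chromosome 17, in the order Tapbp, H2-K2, H2-K1, Tap1, H2-Ab1, H2-Aa, H2-Eb1, H2-D1 and H2-T23, except B2m, which lies on chromosome 2. The table lists H2-K2 as a transcribed pseudogene beside H2-K1. The promoters of H2-K1 and H2-D1, the heavy chain genes that most member probe sets name, are shown with that of B2m as the 250 bases before the RefSeq start. Capitals mark, on either strand, the NF-kappaB site letters GGGATTCCC, the letters TTTCNNTTC that resemble an interferon-stimulated response element, the X2 box core TGACG and the Y box letters CCAAT.
H2-K1 (chr17:34000334-34000583, minus strand): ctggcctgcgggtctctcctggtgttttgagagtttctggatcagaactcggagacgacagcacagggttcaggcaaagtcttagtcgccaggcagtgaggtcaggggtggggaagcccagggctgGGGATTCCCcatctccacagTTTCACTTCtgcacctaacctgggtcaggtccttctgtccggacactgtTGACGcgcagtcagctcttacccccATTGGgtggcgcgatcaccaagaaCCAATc
H2-D1 (chr17:35262844-35263093, plus strand): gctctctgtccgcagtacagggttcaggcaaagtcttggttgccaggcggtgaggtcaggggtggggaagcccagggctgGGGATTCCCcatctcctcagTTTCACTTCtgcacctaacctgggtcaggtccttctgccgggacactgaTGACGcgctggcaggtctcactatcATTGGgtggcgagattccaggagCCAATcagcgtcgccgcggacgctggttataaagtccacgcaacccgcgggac
B2m (chr2:122147437-122147686, plus strand): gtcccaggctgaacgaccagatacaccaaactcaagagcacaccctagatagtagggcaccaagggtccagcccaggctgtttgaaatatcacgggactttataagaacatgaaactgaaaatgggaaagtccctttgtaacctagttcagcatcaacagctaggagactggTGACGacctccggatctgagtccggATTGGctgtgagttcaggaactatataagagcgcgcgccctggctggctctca

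The heavy chain promoters carried the same 4 kinds of letters in the same order. In H2-K1 the NF-kappaB letters began 124 bases and in H2-D1 170 bases before the start. In both genes the TTTCNNTTC match began 20 bases, TGACG 69 bases and the first CCAAT match 94 bases after the first base of the NF-kappaB letters. Among the 32851 promoters of 300 bases in the table (250 bases before to 50 after a start), 0.353% held GGGATTCCC and 7.52% held TTTCNNTTC, and of the 8 members with an entry, H2-K1 and H2-D1 alone held either. These shorter forms were added after the promoters had been read, so nothing is read from their match in H2-K1 and H2-D1. The forms planned before were 1 base longer. That of NF-kappaB was held by 0.107% of all promoters, with H2-K1 and H2-D1 among them. That of the response element was held by 3.44%, with H2-T23 and B2m among them and H2-K1 and H2-D1 not. TGACG stood in 20.8% of all promoters and in those of H2-K1, H2-D1, H2-Aa, B2m and Tap1. CCAAT stood in 37.4% and in all 8. The marked matches do not overlap each other. These are matches of letters in the reference strain and not measured sites.

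Over all class I heavy chain probe sets, Foxa2 null minus wild-type was below 0 for 10 of 11 on U74Av2 and for 13 of 17 on MOE430v2. Leaving out 1 of the pools turned the sign for 5 of the 11 and 10 of the 17. The median difference was -0.59 and -0.23 on the log2 scale, beside -0.04 and 0.0005 over all probe sets of the platforms. The range was wide, from -3.17 to 0.71 on U74Av2 and from -2.51 to 1.11 on MOE430v2, also between probe sets that name the same gene. Both Foxa2 null pools lay below both wild-type pools for 6 of the 11 (54.5%) and for 5 of the 17 (29.4%), beside 21.9% and 20.8% of all probe sets. The reverse order was seen for 0 of them, beside 16.1% and 20.5%. Many of these probe sets share target sequence, and the genes were chosen on this contrast, so nothing is read from these counts.

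The lowest value of the family belonged to the U74Av2 probe set of H2-K2, 93714_f_at. Its log2 signal was 7.13 and 7.25 in wild-type and 3.56 and 4.49 in Foxa2 null pools. The groups lay far apart, and the Foxa2 null pools differed from each other by 0.93. The difference was -3.17 (SE 0.35, n = 2 pools per genotype), or 8.97-fold lower signal. Its call was lost without the filter on low signal and without the intensity trend. The suffix _f marks a probe set that the maker designed against a sequence family, and which of the class I transcripts gave this signal was not tested. The other probe set that names H2-K2, 97173_f_at, shared with H2-Q2, lay in the lowest 30% of signal, at 2.07 and 2.10 in Foxa2 null embryos and 2.68 in each wild-type pool. MOE430v2 had 0 probe sets that name H2-K2.

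H2-K1 encodes the heavy chain of H2-K. On U74Av2, 93120_f_at was at 8.15 and 8.10 in wild-type and 7.24 and 7.14 in Foxa2 null pools, a difference of -0.93 (SE 0.17). For 97125_f_at the values were 6.21 and 5.41 against 3.55 and 3.91, a difference of -2.08 (SE 0.42). Its Foxa2 null mean, 3.73, lay below the filter cut of 3.94 on mean log2 signal. In both probe sets the 4 pools split by genotype with no overlap. The other H2-K1 probe sets did not split in this way. For 97700_at the values were 6.02 and 5.32 against 5.69 and 5.63, so that both Foxa2 null pools lay between the wild-type pools and the difference was -0.01 (SE 0.32). For 97174_r_at, which also names H2-Q7, H2-Q9 and H2-Q10, they were 4.28 and 5.52 against 4.33 and 4.67, a difference of -0.40 (SE 0.49).

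**Figure D1:**
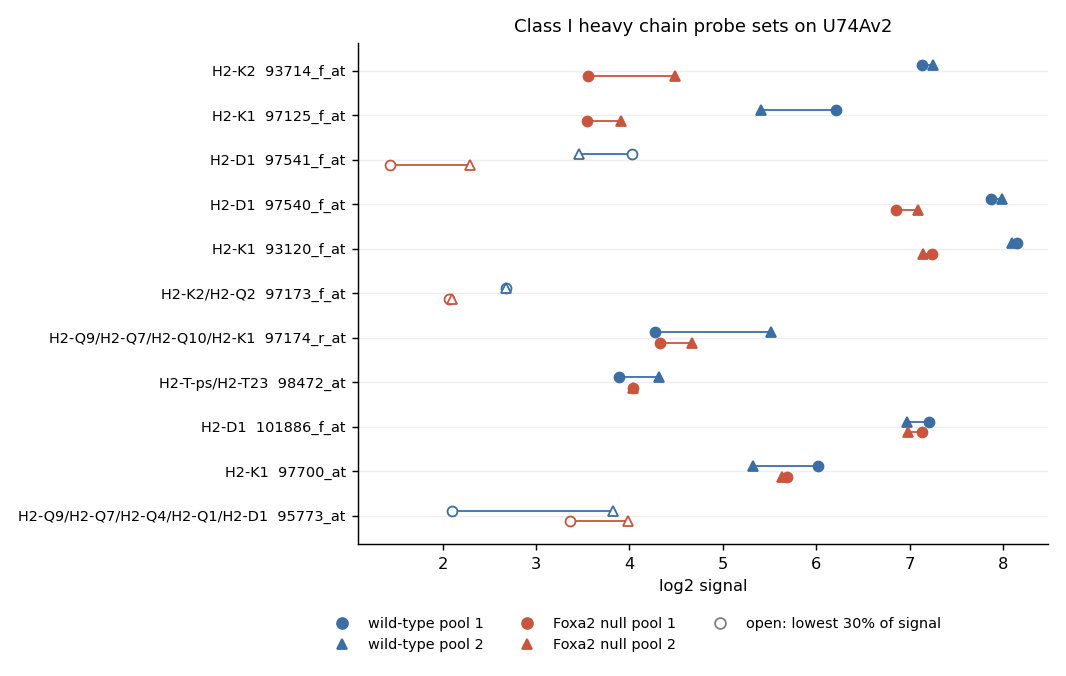
Log2 signal (horizontal axis) of the 11 class I heavy chain probe sets on U74Av2, sorted by the difference. Each symbol is 1 pool and each line joins the 2 pools of a genotype. The Foxa2 null pools of 93714_f_at (H2-K2) sit at 3.56 and 4.49 and the wild-type pools at 7.13 and 7.25, while the pools of 97700_at (H2-K1) and 101886_f_at (H2-D1) overlap.

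On MOE430v2, 1425336_x_at of H2-K1 was at 9.97 and 10.2 in wild-type and 9.09 and 8.92 in Foxa2 null pools. It was the single H2-K1 probe set of this array whose pools split by genotype, and the difference was -1.08 (SE 0.17), or 2.11-fold lower signal. Its call was lost in 7 of 12 other settings, among them quantile normalization, and when wild-type pool 1, wild-type pool 2 or Foxa2 null pool 2 was left out. For 1427746_x_at the values were 7.57 and 6.68 against 7.23 and 5.53, a difference of -0.75 (SE 0.63). For 1451931_x_at they were 9.51 and 8.42 against 8.48 and 8.997, a difference of -0.23 (SE 0.34). The pools overlapped in both.
For 1450534_x_at the values were 7.73 and 8.19 against 7.86 and 7.89, a difference of -0.08 (SE 0.29). The shared H2-K1 and H2-D1 probe set 1424948_x_at was at 6.72 and 7.34 against 6.70 and 6.84, a difference of -0.26 (SE 0.43). The shared H2-Q5 and H2-K1 probe set 1451593_at was at 6.11 and 8.09 against 7.40 and 7.86, a difference of 0.53 (SE 0.58). In this last one wild-type pool 1 stood alone at the low end and the other 3 pools lay together.

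H2-D1 encodes the heavy chain of H2-D. On U74Av2, 97540_f_at was at 7.87 and 7.99 in wild-type and 6.86 and 7.09 in Foxa2 null pools, a difference of -0.96 (SE 0.19) with no overlap. The values of 101886_f_at were 7.21 and 6.98 against 7.13 and 6.98, a difference of -0.04 (SE 0.20). These bright H2-D1 probe sets, read on the same arrays, thus gave a clear split in the first and none in the second. In the lowest 30% of signal, 97541_f_at was at 4.03 and 3.46 against 1.43 and 2.29, a difference of -1.88 without overlap. The shared 95773_at, which also names H2-Q1, H2-Q4, H2-Q7 and H2-Q9, ranged from 2.10 to 3.98 over the 4 pools and its difference was 0.71.

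Of the 10 MOE430v2 probe sets that name H2-D1, 4 split by genotype with the Foxa2 null pools lower and 0 with them higher, beside 20.8% and 20.5% of all probe sets, and these probe sets overlap in target. The values of 1425545_x_at were 9.60 and 9.23 against 8.45 and 8.96, a difference of -0.72 (SE 0.24). Those of 1451784_x_at were 8.97 and 8.56 against 7.84 and 8.40, a difference of -0.64 (SE 0.28). The gap between the closest pools of the 2 genotypes was narrow in both, and Foxa2 null pool 1 was the lowest. The values of 1426324_at were 7.07 and 7.23 against 5.55 and 4.34, a difference of -2.20 (SE 0.68). Its Foxa2 null mean, 4.95, lay below the filter cut of 5.77 on mean log2 signal. In the lowest 30% of signal, 1425614_x_at was at 4.71 and 7.22 against 2.83 and 4.08, a difference of -2.51. In that probe set the wild-type pools were 2.51 apart, as far as the genotypes.
The other H2-D1 probe sets overlapped. For 1451683_x_at the values were 7.10 and 6.57 against 6.73 and 6.65, a difference of -0.15 (SE 0.45). For 1452544_x_at they were 4.69 and 7.03 against 6.92 and 5.56, a difference of 0.38 (SE 0.89). Of the 3 dim ones, 1451934_at was at 5.66 and 4.24 against 5.49 and 6.62, a difference of 1.11, and 1427651_x_at and 1450170_x_at ranged from 3.28 to 4.25 and from 3.59 to 6.60.

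**Figure D2:**
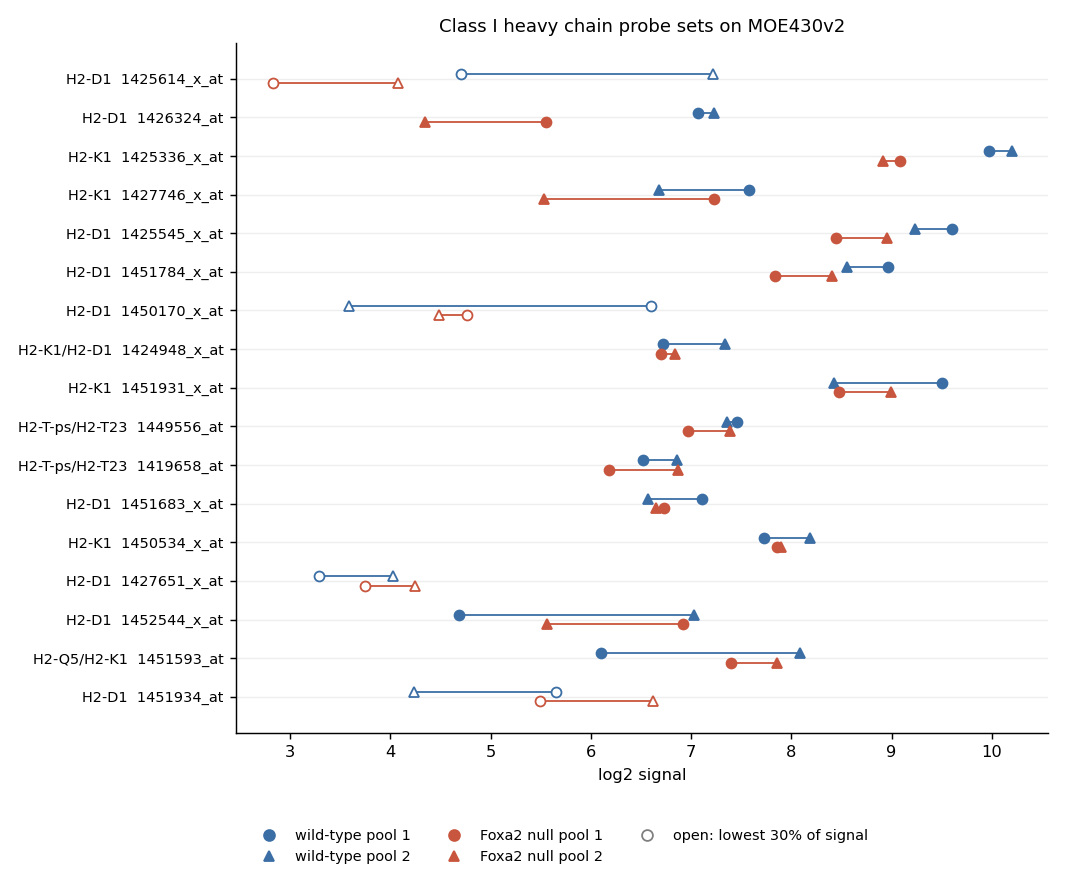
Log2 signal after cyclic loess (horizontal axis) of the 17 class I heavy chain probe sets on MOE430v2, sorted by the difference. Each symbol is 1 pool and each line joins the 2 pools of a genotype. The pools split by genotype in 5 of 17 probe sets, with the Foxa2 null pools lower each time, and overlap in 12.

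H2-T23 encodes Qa-1, a class I molecule of little variation that natural killer cells read. Its probe sets also name H2-T-ps. On U74Av2, 98472_at was at 3.89 and 4.32 in wild-type and 4.04 in both Foxa2 null pools, a difference of -0.07 (SE 0.50). On MOE430v2, 1419658_at was at 6.52 and 6.86 against 6.18 and 6.87, a difference of -0.17 (SE 0.50). The values of 1449556_at were 7.45 and 7.35 against 6.97 and 7.39, a difference of -0.23 (SE 0.36). The pools of the 2 genotypes overlapped in all of its probe sets.

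B2m encodes the light chain, which every class I molecule shares. On U74Av2, 93088_at was at 6.02 and 7.34 in wild-type and 5.05 and 6.45 in Foxa2 null pools, a difference of -0.93 (SE 0.52). Pool 2 was higher than pool 1 by 1.32 in wild-type and by 1.39 in Foxa2 null embryos, so the spread within each genotype was larger than the difference between them. On MOE430v2, which measured the same extracts, the spread was smaller. There 1449289_a_at was at 9.94 and 10.17 against 9.77 and 9.93, a difference of -0.20 (SE 0.16). The values of 1452428_a_at were 10.43 and 10.79 against 10.36 and 10.16, a difference of -0.35 (SE 0.16). Both Foxa2 null pools lay just below both wild-type pools in either MOE430v2 probe set, an order seen for 20.8% of all probe sets on that array. The B2m probe sets read 1 gene in the same extracts, so they are not separate observations.

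Tap1 encodes a subunit of the peptide transporter. On U74Av2, 103035_at was at 3.97 and 4.92 in wild-type and 4.71 and 5.02 in Foxa2 null pools, a difference of 0.42 (SE 0.45). The values of 162278_r_at were 4.55 and 3.42 against 4.10 and 4.55, a difference of 0.34 (SE 0.56). The pools overlapped in both. On MOE430v2, 1449803_x_at was at 5.81 and 6.29 against 6.53 and 5.75, a difference of 0.09 (SE 0.64). The other 3 Tap1 probe sets of that array lay in the lowest 30% of signal, with differences from -0.32 to 0.87.

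Tapbp encodes tapasin, which bridges the transporter and the heavy chain. On U74Av2, 100154_at was at 6.06 and 6.0 against 5.81 and 5.77, a difference of -0.24 (SE 0.25). The values of 162104_f_at were 7.25 and 7.59 against 7.10 and 7.11, a difference of -0.31 (SE 0.20). The pools split by genotype in these probe sets, by a small margin. For 102689_at the values were 5.30 and 6.57 against 5.37 and 5.99, a difference of -0.26 (SE 0.42), with overlap. On MOE430v2 the direction was not shared between the probe sets of Tapbp. There 1421812_at was at 8.12 and 8.05 against 8.63 and 8.21, a difference of 0.33 (SE 0.26). The values of 1450378_at were 6.42 and 7.55 against 5.497 and 7.14, a difference of -0.66 (SE 0.66), with pool 2 above pool 1 in both genotypes.

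Many class II probe sets gave dim signals, and 6 of the 11 lay in the lowest 30%. H2-Ab1, the beta chain of I-A, was higher in Foxa2 null pools in all of its 4 probe sets, with no overlap. This order was seen for 16.1% of all probe sets on U74Av2 and 20.5% on MOE430v2. The H2-Ab1 probe sets read 1 gene in the same extracts, so they are not separate observations. On U74Av2, 100998_at was at 3.12 and 4.12 in wild-type and 5.11 and 4.73 in Foxa2 null pools, a difference of 1.30 (SE 0.52). On MOE430v2, 1450648_s_at was at 6.395 and 4.79 against 8.19 and 8.08, a difference of 2.54 (SE 0.56). The values of 1451721_a_at were 5.78 and 3.43 against 7.53 and 6.71, a difference of 2.51 (SE 0.89). The wild-type pools stood further apart than the Foxa2 null pools in these 3 probe sets. Their wild-type means, 3.62, 5.59 and 4.60, lay below the filter cut on mean log2 signal, 3.94 on U74Av2 and 5.77 on MOE430v2. These probe sets thus passed the filter only through the Foxa2 null pools, where they were high. The dim 1425477_x_at was at 4.01 and 2.74 against 4.90 and 6.73, a difference of 2.44.

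H2-Aa, the alpha chain of I-A, was not tested, since its 5 probe sets all lay in the lowest 30% of signal. On U74Av2, 92866_at ranged from 2.07 to 2.46. On MOE430v2, 1443783_x_at was at 0.58 and -1.16 against 4.46 and 1.36, a difference of 3.20 at the bottom of the scale. The other 3 had differences from -0.74 to 0.53, and the Foxa2 null pools of one of them, 1435290_x_at, were at 6.85 and 3.41.

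H2-Eb1, the beta chain of I-E, had 1 probe set on each array. On U74Av2, 94285_at was at 5.87 and 4.24 in wild-type and 5.56 and 5.88 in Foxa2 null pools, a difference of 0.66 (SE 0.50) with overlap. Wild-type pool 2 set that direction, and without it the difference was -0.15. On MOE430v2, 1417025_at was at 7.39 and 6.49 against 5.84 and 5.62, a difference of -1.21 (SE 0.58) without overlap. Its Foxa2 null mean, 5.73, lay just below the filter cut of 5.77 on mean log2 signal.

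**Figure D3:**
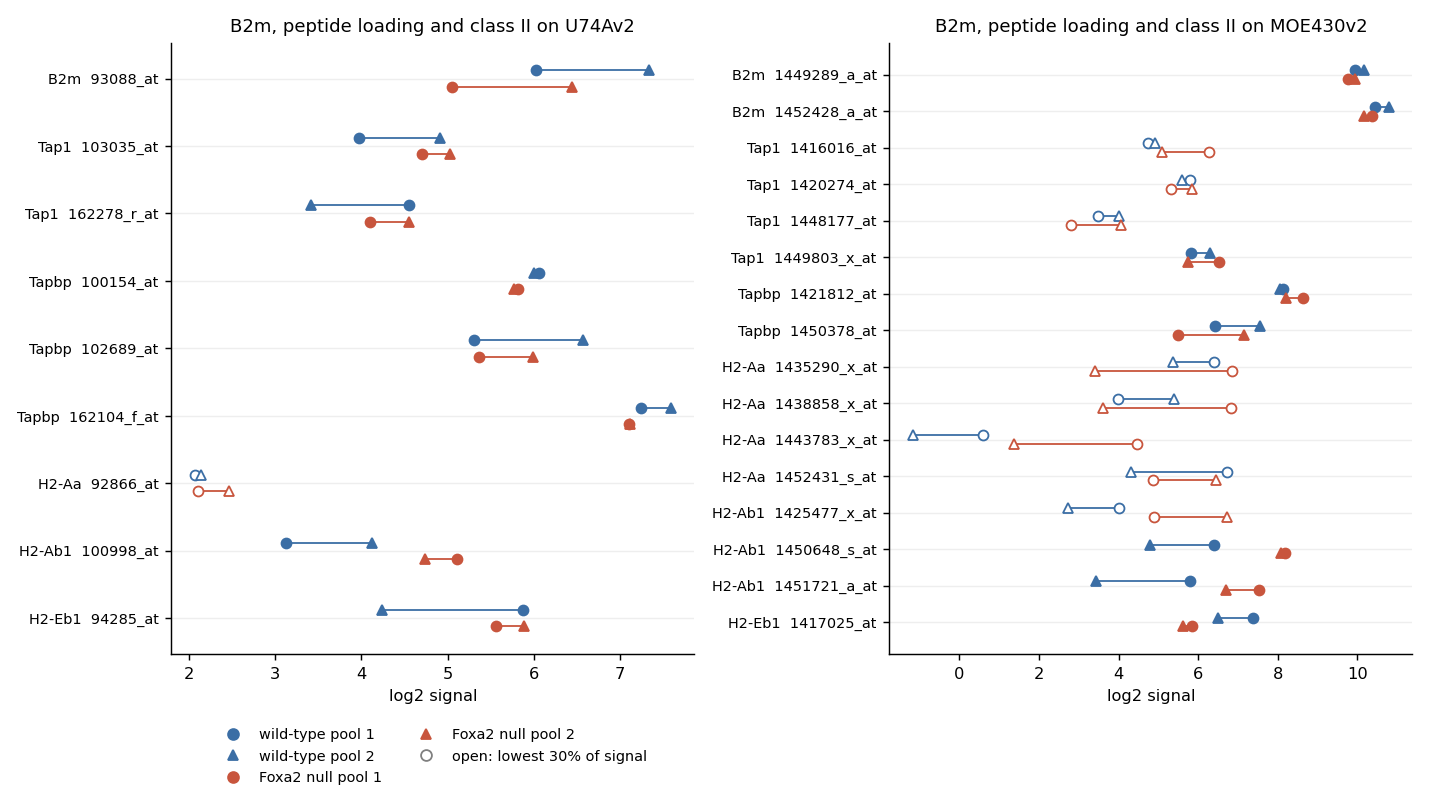
Log2 signal (horizontal axes) of the probe sets of B2m, Tap1, Tapbp and the class II genes on U74Av2 (left, 9 probe sets) and MOE430v2 (right, 16 probe sets). Each symbol is 1 pool, each line joins the 2 pools of a genotype, and open symbols mark the lowest 30% of signal. The 4 H2-Ab1 probe sets have both Foxa2 null pools to the right of both wild-type pools, and the MOE430v2 probe set of H2-Eb1 has them to the left. Of all probe sets, 16.1% on U74Av2 and 20.5% on MOE430v2 have them to the right, and 20.8% on MOE430v2 to the left.

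Of the 53 member probe sets, 37 passed the filter on low signal, 16 on U74Av2 and 21 on MOE430v2. By limma with an adjusted p under 0.05 over all probe sets tested on a platform, 1 of the 16 was lower (93714_f_at of H2-K2) and 0 were higher, beside 0.173% and 0.104% of the 8695 probe sets tested on U74Av2. On MOE430v2, 1 of the 21 was lower (1425336_x_at of H2-K1) and 0 were higher, beside 0.244% and 0.19% of 31526. The members had been chosen on this contrast and nothing is read from these counts. Both Foxa2 null pools were below both wild-type pools for 8 of 20 member probe sets on U74Av2 and above for 1, beside 21.9% and 16.1% of all probe sets. On MOE430v2 they were below for 8 of 33 and above for 6, beside 20.8% and 20.5%. The MOE430v2 shares, 24.2% and 18.2%, were close to the background. The median difference over all members was -0.25 on U74Av2 and -0.17 on MOE430v2. When only the probe sets without a suffix were taken, it was 0.08 on U74Av2 (10 probe sets) and stayed at -0.17 on MOE430v2. A further U74Av2 probe set, 102161_f_at, names H2-K1, H2-K2, H2-D1 and H2-T23 together with loci that carry no H2 symbol and was not counted, and neither was 1422348_at of H2-D1 on MOE430v2 for the same reason. Their differences were -0.69 and -0.89.

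**Figure D4:**
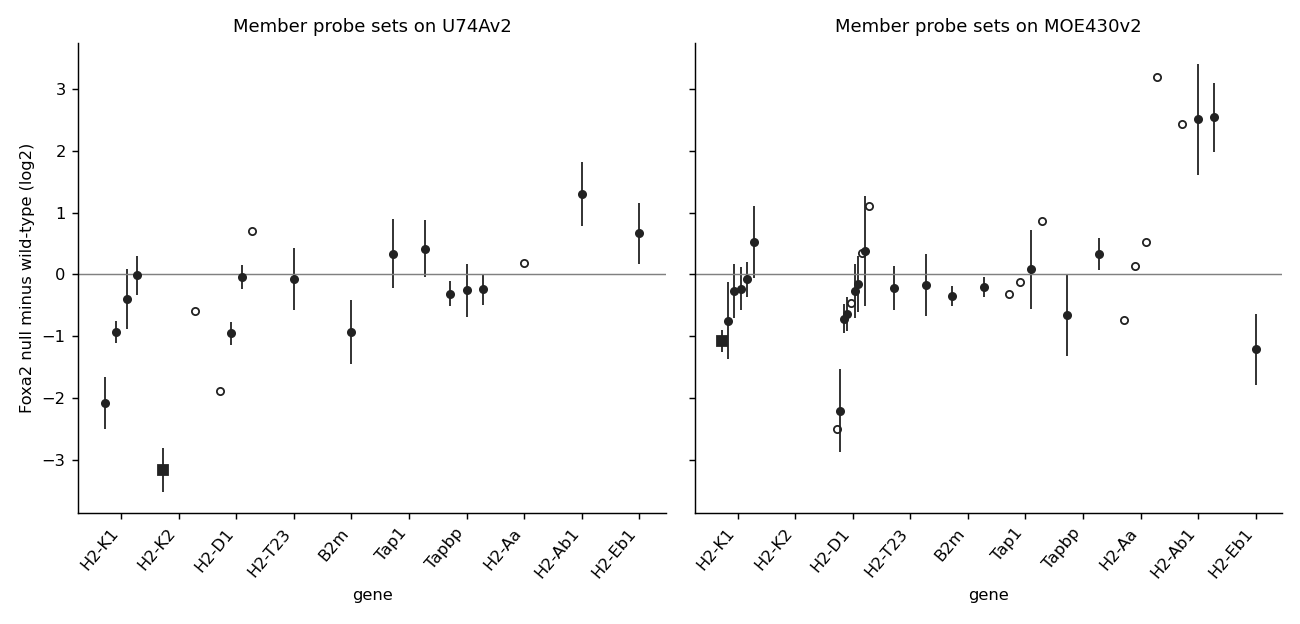
Foxa2 null minus wild-type on the log2 scale (vertical axis) for each member probe set, by gene, on U74Av2 (left) and MOE430v2 (right). Filled symbols are probe sets tested, with the standard error of limma as bars, open circles lie in the lowest 30% of signal, and the squares are the 2 probe sets past the threshold (-3.17 and -1.08). A probe set that names 2 members is drawn under both.

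Most member probe sets carried a suffix. On both arrays a suffix letter after the number marks probe sets whose probes may also match other transcripts (_f and _x), that read several transcripts of a gene (_a) or a group of like transcripts (_s), or that met fewer design rules (_r). Such probe sets made up 50.0% of the members on U74Av2 and 66.7% on MOE430v2, beside 22.6% and 19.9% of all probe sets. Of the class I heavy chain probe sets with a suffix, 8 of 8 on U74Av2 and 10 of 12 on MOE430v2 were below 0, with medians of -0.94 and -0.37. Of those without one, 2 of 3 and 3 of 5 were below 0, with medians of -0.01 and -0.17. The latter ranged from -0.07 to 0.71 on U74Av2 and from -2.20 (1426324_at of H2-D1) to 1.11 on MOE430v2. They include all H2-T23 probe sets, so suffix was mixed with gene. The part of sequence differences under the probes in these values was not tested, as the probe sequences were not used here.

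Where a probe set of either array was annotated from the same sequence record, the values could be set side by side over the same 4 extracts. There were 3 such pairs, and the values of the 2 arrays were apart in each. For H2-K1, 97125_f_at gave -2.08 (SE 0.42) on U74Av2 and 1450534_x_at gave -0.08 (SE 0.29) on MOE430v2. For H2-D1, 97540_f_at gave -0.96 (SE 0.19) and 1451934_at, in the lowest 30%, gave 1.11. In the third pair, also of H2-D1, both lay in the lowest 30%, with -1.88 for 97541_f_at and 0.34 for 1427651_x_at. The single pair tested on both arrays differed in size and not in sign, and the pairs of opposite sign rest on probe sets in the lowest 30% whose MOE430v2 pools overlap. Probes, hybridization and normalization all differ between the arrays, and their part was not tested.

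Pools of the same genotype also lay further apart, at the median, in the member probe sets tested than in all probe sets tested. This measure was not used to choose the members. Over the member probe sets tested, the median absolute difference between the wild-type pools was 0.75 on U74Av2 and 0.48 on MOE430v2, beside 0.24 and 0.27 over all probe sets tested. Between the Foxa2 null pools it was 0.32 and 0.46, beside 0.24 and 0.26. The comparison was not matched for signal, so a trait of these genes and the spread of dim probe sets cannot be told apart in it. With 1 pool on each side there is no test of this.

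The rest of the pathway was read from gene lists, with the probe set of highest mean signal for each gene. Of 15 further class I and class I-like genes on U74Av2 (8 tested) and 14 on MOE430v2 (10 tested), 0 passed limma's adjusted threshold on either array, and 1 on each had an unadjusted p under 0.05. The median differences were -0.25 and -0.43, with 11 of 15 and 12 of 14 below 0. The largest differences among those tested on MOE430v2 were those of Fcgrt, the neonatal Fc receptor, at 1.66 (SE 0.74), of H2-Q5 at -1.60 (SE 0.65) and of H2-T18 at -1.06 (SE 0.52). On U74Av2 they were those of H2-T18 at 0.87 (SE 0.56), H2-M9 at -0.69 (SE 0.25) and H2-M3 at 0.50 (SE 0.41). H2-T18 thus had a value of opposite sign on either array. Counted by probe set, 26 of 34 other H2 probe sets on U74Av2 and 22 of 35 on MOE430v2 were below 0, with medians of -0.28 and -0.10. This count takes in shared probe sets and every other gene with an H2 symbol, also those of class II. Of these, 20 were tested on each array and 0 passed limma's adjusted threshold, with 4 lower and 0 higher at an unadjusted p under 0.05 on U74Av2 and 1 and 1 on MOE430v2.

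Genes of class I peptide supply had medians near 0. Of the peptide loading genes outside the members, 7 were tested on U74Av2 and 10 on MOE430v2, 0 passed limma's adjusted threshold, and 1 on each had an unadjusted p under 0.05. Their medians over those tested were 0.08 and 0.03. Pdia3, the disulfide isomerase of the loading complex, was at 8.37 and 8.71 in wild-type and 9.86 and 9.06 in Foxa2 null pools on U74Av2, a difference of 0.92 (SE 0.25), and its difference on MOE430v2 was 0.20 (SE 0.22). On U74Av2, Tpp2, a peptidase of the cytosol, followed at 0.23 (SE 0.31) and Sec61b, of the translocon, at -0.22 (SE 0.16). On MOE430v2, Sec61a1 was at -0.19 (SE 0.11) and the chaperone Calr at 0.18 (SE 0.08).

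Of the immunoproteasome subunits and the proteasome activator, 2 of the 4 on each array were tested, 0 passed limma's adjusted threshold, and 1 on U74Av2 and 0 on MOE430v2 had an unadjusted p under 0.05. Psmb10, an immunoproteasome subunit, was at 0.53 (SE 0.18) on U74Av2 and 0.14 (SE 0.18) on MOE430v2. Psme1, of the activator, was at 0.15 (SE 0.19) and -0.25 (SE 0.12). The constitutive subunits that they replace, Psmb5, Psmb6 and Psmb7, lay between 0.04 and 0.26 on U74Av2 and between -0.23 and -0.05 on MOE430v2, with 0 past limma's adjusted threshold and 0 and 1 at an unadjusted p under 0.05.

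Of the other class II and class II loading genes, 8 were tested on U74Av2 and 9 on MOE430v2 and 0 passed limma's adjusted threshold. On U74Av2, 2 were lower and 2 higher at an unadjusted p under 0.05, and on MOE430v2 0 were. H2-DMa, the alpha chain of the peptide exchange factor DM, was at 5.73 and 5.29 against 4.34 and 4.29 on U74Av2, a difference of -1.19 (SE 0.36). On MOE430v2 it was at 6.33 and 6.44 against 6.88 and 7.32, a difference of 0.72 (SE 0.45). It thus split by genotype on both arrays, in opposite directions. H2-DMb2, a beta chain of DM, was at -1.16 (SE 0.32) on U74Av2 and at -0.05 on MOE430v2. Ifi30, a thiol reductase of the endocytic pathway, was at 0.80 (SE 0.28) and 0.20. Cd74, the invariant chain, was at 0.60 (SE 0.37) and H2-Oa, a chain of the DM inhibitor, at -0.80 (SE 0.39) on MOE430v2. On U74Av2, Cd74 was at -0.24 and H2-Oa at 0.67. Both of these genes thus also split by genotype on both arrays, in opposite directions.

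The factors that control these genes, and genes induced by interferon, gave 0 calls by limma's adjusted threshold on either array. Of the regulators, 9 were tested on U74Av2 and 12 on MOE430v2, with medians of 0.21 and 0.08 and 0 at an unadjusted p under 0.05 on both. On U74Av2 the largest values were those of Irf8, an interferon regulatory factor, at 0.69 (SE 0.46), Rfxank, of the complex that binds the X box, at 0.38 (SE 0.23), and Ciita, the class II transactivator, at 0.38 (SE 0.37). On MOE430v2 they were those of Creb1 at 0.26 (SE 0.13), Rfxap at 0.17 (SE 0.23) and Nlrc5, the class I transactivator, at 0.15 (SE 0.67). Of the interferon-induced genes, 15 of 20 on U74Av2 and 10 of 26 on MOE430v2 lay in the lowest 30% of signal. The medians of those tested were 0.15 and -0.05, and 1 and 0 had an unadjusted p under 0.05. Irf9 was at 0.76 (SE 0.33), Gbp7 at -0.53 (SE 0.38) and Irf7 at 0.17 (SE 0.53) on U74Av2. Igtp was at 1.08 (SE 0.76), Usp18 at 0.98 (SE 0.50) and Irf7 at -0.89 (SE 1.05) on MOE430v2.

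Genes with other functions from the same region of chromosome 17 were below 0 for 30 of 45 on U74Av2 and 25 of 53 on MOE430v2. Of the listed neighbours, 38 were tested on U74Av2 and 45 on MOE430v2, with medians of -0.10 and 0.001. By limma's adjusted threshold 0 were called, and 5 on each array had an unadjusted p under 0.05. The largest differences on U74Av2 were those of Hspa1l, a heat shock protein, at 1.47 (SE 0.48), Vps52, of vesicle transport, at 1.06 (SE 0.20) and Ager, a receptor, at -1.04 (SE 0.38). On MOE430v2 they were those of Ier3, an immediate early gene, at 1.96 (SE 0.64), Col11a2, a collagen chain, at 1.38 (SE 0.88) and the complement gene C2 at -1.25 (SE 0.41).

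**Figure D5:**
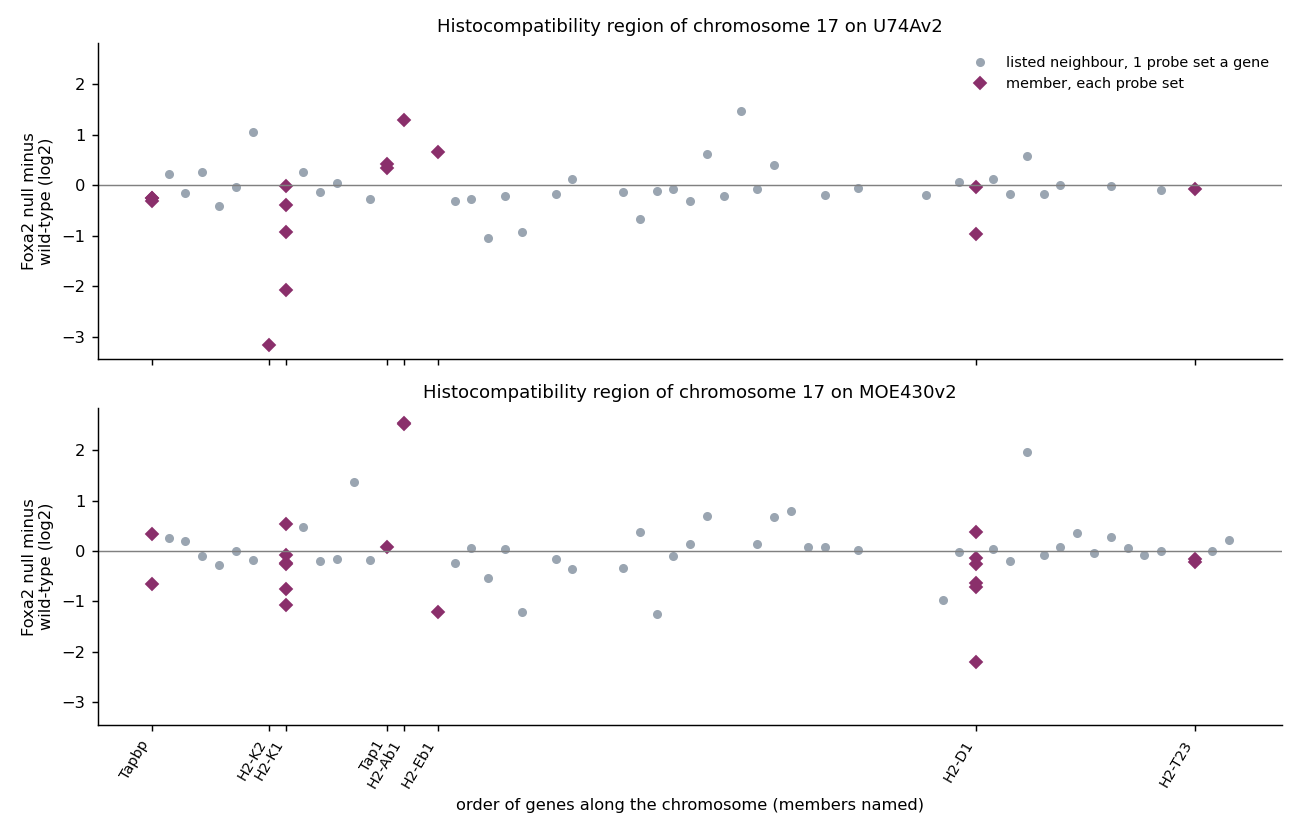
Foxa2 null minus wild-type on the log2 scale (vertical axes) along the histocompatibility region of chromosome 17, with genes in their order and not to distance (horizontal axis), on U74Av2 (top) and MOE430v2 (bottom). Diamonds are member probe sets that were tested, and circles are listed neighbours with other functions, 38 and 45 of them. The diamonds of H2-K1 and H2-D1 spread from -0.01 to -2.08 on U74Av2 and from 0.53 to -2.20 on MOE430v2. The circles spread from -1.04 to 1.47 and from -1.25 to 1.96, with medians of -0.10 and 0.001.

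Other cell types in the pools could carry class I and class II RNA, and their markers are given beside the results. Of the markers of blood-borne immune cells, 6 of 12 on U74Av2 and 7 of 13 on MOE430v2 lay in the lowest 30% of signal, with Ptprc, which marks all white blood cells, among them on both. Their summed signal was 286 and 334 in wild-type and 267 and 295 in Foxa2 null pools on U74Av2. On MOE430v2 it was 1437 and 1622 against 1867 and 2044. The immune markers were below 0 for 8 of 12 on U74Av2 (median -0.39) and for 5 of 13 on MOE430v2 (median 0.36). On U74Av2 both Foxa2 null pools lay below both wild-type pools for 4 of them and above for 1, beside 21.9% and 16.1% of all probe sets. On MOE430v2 they lay below for 0 and above for 5, beside 20.8% and 20.5%. For markers of the maternal decidua, 4 of 9 and 2 of 9 lay in the lowest 30%, and the summed signal was 136 and 215 against 161 and 139 on U74Av2 and 1897 and 1695 against 2411 and 1738 on MOE430v2. The trophoblast markers summed to 694 and 678 against 815 and 1073 on U74Av2, and to 4451 and 4518 against 6069 and 7239 on MOE430v2. The visceral endoderm markers summed to 6667 and 6514 against 9746 and 6690, and to 66286 and 68333 against 89312 and 71703. These sums were higher in both Foxa2 null pools on both arrays, for visceral endoderm on U74Av2 by little in pool 2. Hand1 was the brightest trophoblast marker in every pool. On MOE430v2, Cdx2 was at 10.82 and 10.50 in wild-type and 10.64 and 9.78 in Foxa2 null pools. Eomes was at 8.52 and 9.87 against 9.998 and 11.06 there. The primitive streak and mesoderm also express Hand1 and Eomes, and 3 of 8 trophoblast markers were below 0 on either array. Of the visceral endoderm markers 2 of 10 and 1 of 11 were below 0, with Afp at -0.48 on U74Av2 and 0.43 on MOE430v2. Those of endothelium and of primitive blood overlapped between the genotypes, at 181 to 255 and 191 to 404 on U74Av2 and 873 to 1973 and 330 to 1648 on MOE430v2. The part of these cell types in the class I and class II values was not tested.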

How the data were processed

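RNA of 2 wild-type and 2 Foxa2 null epiblast pools was measured on 4 U74Av2 and 4 MOE430v2 arrays, and samples were grouped by the genotype in their labels. Per probe set the authors deposited a MAS5 signal, a linear intensity scaled per array. The trimmed mean is 150 on every U74Av2 and 500 on every MOE430v2 array, the median signal 48 to 52.8 and 155 to 165, and the number of arrays limits the precision. No detection calls or probe-level values were analysed here. Signals were taken to log2 in R 4.3.3 (signals of 0, 4 values on U74Av2, were set to 0.1), and MOE430v2 arrays were normalized by cyclic loess, as the methods name loess for them. Control probe sets and the 30% with the lowest mean log2 signal were left out of testing, which left 8695 and 31526. Foxa2 null minus wild-type was fitted per platform in limma 3.58.1 with lmFit and with eBayes using an intensity trend. Tests were two-sided, p-values were adjusted by Benjamini-Hochberg and the threshold was 0.05. With 2 against 2 pools the smallest p of an exact permutation test is 0.333. The fit was tested on simulated data.

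The members, gene lists, motifs and tests were chosen with earlier results of these data known. Member probe sets were given each apart, with the values of all pools where they passed the filter or differed by at least 1, and otherwise as a range. For lists, the probe set with the highest mean signal stood for a gene, and the 3 largest differences per array among those tested were named. Genes were named through the platform annotation, updated by gene ID to RefSeq GRCm38.p6. With controls set aside, 10833 and 34945 probe sets had 1 gene symbol, 396 and 932 had several and 1193 and 9160 had none. Promoters were those of RefSeq GRCm38.p6, with an entry for 8 of the 10 members (not for H2-K2 and H2-Ab1). The shorter forms of 2 motifs were added after the promoters had been read. Alternatives were other normalizations, 16 added before log2, other filters, no intensity trend, a replicate block and each pool left out.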

Additional observations from a re-analysis of the deposited data

How the results depend on the processing

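Leaving out 1 pool turned the sign of the difference in at least 1 of the 4 ways for 9 of 20 member probe sets on U74Av2 and 17 of 33 on MOE430v2, while the 2 called ones kept their sign. H2-K2 on U74Av2 stayed past the threshold in 9 of 12 settings, with adjusted p from limma between 5.5e-06 and 0.159 and a difference from -3.63 to -2.31 (with the lowest 50% left out it was not tested). H2-K1 on MOE430v2 passed in 5 of 12, with adjusted p between 6.37e-05 and 0.449.

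Called probe sets numbered 24 on U74Av2 and 137 on MOE430v2. They became 3 and 43 without the filter, 38 and 325 with the lowest 50% left out, and 0 and 0 without the intensity trend. With each pool left out they ranged from 17 to 46 and from 17 to 276. They were 46 without wild-type pool 2 on U74Av2, and on MOE430v2 17 without wild-type pool 1, 34 without wild-type pool 2, 276 when Foxa2 null pool 1 was dropped and 236 when Foxa2 null pool 2 was. Called members, 1 on each array, became 0 and 0 without the filter and 0 and 0 without the trend. On MOE430v2 they were also 0 under quantile normalization and 0 with arrays centred on the median. With each pool left out they ranged from 1 to 1 on U74Av2 and from 0 to 1 on MOE430v2. The member median was 0.084 on U74Av2 and -0.17 on MOE430v2 without suffixed probe sets. With each pool left out, the median over all members ranged from -0.38 (without wild-type pool 1) to -0.17 on U74Av2. On MOE430v2 it ranged from -0.25 to -0.055 (without Foxa2 null pool 1). The cause of these changes was not tested.

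The pools share replicate numbers, but deviations of same-numbered pools correlated only at 0.11 on U74Av2 and 0.09 on MOE430v2, so the numbers were not taken to pair them. With the replicate block 292 and 1643 probe sets were called, and 5 and 3 members. The low signal of many class II probe sets limits what can be said of these genes.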
